A study of Mus musculus with 12 samples.

Results

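The protocadherins are cell-surface adhesion proteins of the cadherin superfamily. They were represented by every probe set whose platform annotation gives exactly 1 gene symbol and whose symbol begins with Pcdh, which left 36 of the 41345 probe sets on the array and 35 of its 22180 genes named in this way. Of these, 22 probe sets belonged to the Pcdhb cluster, 1 to the Pcdhg cluster (Pcdhga10) and 13 to 12 non-clustered genes, with 2 probe sets for Pcdh15. The Pcdha cluster had 0 probe sets with a single symbol, and 4 further Pcdh probe sets carried several symbols and were not used. All 36 had a mean log2 value at or above the filter of 5.7242, the 30th percentile of the array, so every one was among the 28949 probe sets tested.

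RNA came from primary neuronal cultures of the embryonic brain of ICR (CD-1) mice, an outbred stock, and was hybridised to 12 Affymetrix whole-transcript arrays, 2 for each of 6 groups. Cultures received an antidepressant on day 3 in vitro and were collected on day 5, after 48 h: amitriptyline at 5 µM, citalopram at 10 µM, duloxetine at 0.1 µM, imipramine at 5 µM or mirtazapine at 50 µM. Control cultures of the same stock and age formed the last group, and what they were given is not stated in the sources used here. Whether the 2 arrays of a group represent separate cultures or animals is not in the labels, and the p-values given here therefore reflect no more than how these arrays spread, which may be technical.

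As background, the clustered protocadherins lie side by side in a single stretch of the genome, and each neuron switches on a few of them from their own promoters. The proteins form mixed dimers on the cell surface that bind only to matching sets on another membrane, which lets a neuron tell its own branches from those of its neighbours. Promoter choice involves DNA methylation, the insulator protein CTCF and the cohesin ring. The non-clustered protocadherins are single genes. Many of them, the delta protocadherins, steer axon growth, cell sorting and synapse formation, several through the actin-regulating WAVE complex.

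All 8 neuronal markers passed the filter, with mean log2 values between 10.42 (Rbfox3) and 12.92 (Stmn2). The astrocyte, progenitor and oligodendrocyte lineage markers also passed, while Ptprc of microglia, Tek of endothelium and Lum of fibroblasts lay below it. In such bulk RNA, fewer cells of a type and less RNA per cell cannot be told apart. Duloxetine replicate 2 and mirtazapine replicate 2 stood apart from the rest before any gene was considered. The median of the 23 background control probe sets was 5.61 and 5.46 on them, against 4.85 to 5.06 on the other 10 arrays, and their upper quartile of all values was 8.21 and 8.2, against 8.31 to 8.37. For duloxetine and mirtazapine, some differences and medians of the protocadherins and medians of gene lists depended on replicate 2. Where one changed sign or moved by over 1.5 times without it, the value without that array is given beside it. This was not done throughout for the other drugs, whose values may also depend on single arrays.

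No protocadherin passed an adjusted p of 0.05 in any comparison. In limma's test across 28949 probe sets with Benjamini-Hochberg adjustment, 0 of the 36 were called under amitriptyline, citalopram, duloxetine or imipramine, where the whole array had 0 calls as well (0%). Under mirtazapine 0 of 36 were called, against 23 of 28949 probe sets on the array (0.0795%). The test of any difference among the 6 groups also called 0 of 36 and 0 on the whole array (0%). Its lowest adjusted p among the protocadherins in limma was 0.498 for Pcdh7, and 2 of them, Pcdh7 and 1 of the Pcdh15 probe sets, had an unadjusted p under 0.05, against 9.12% of the array. With 2 arrays a group, the 95% interval of a difference from control reached 0.455 log2 units above and below it for the median Pcdhb probe set and 0.253 for the median non-clustered one. Single probe sets reached from 0.238 to 0.777 in the Pcdhb class and from 0.192 to 0.416 in the non-clustered class. A difference smaller than the reach of its own interval was not resolved.

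The Pcdhb genes encode the beta protocadherins, each from a single exon with its own promoter. Their 22 probe sets had mean log2 values between 5.94 (Pcdhb9) and 9.46 (Pcdhb17), with Pcdhb20 (9.23) and Pcdhb6 (9.18) next highest. These are signals of different probes, and they do not give the order of the transcripts' abundance. The genes resemble each other closely in sequence, so a probe set may also bind transcripts of its neighbours. What varied was the array. The median Pcdhb probe set lay 0.55 log2 units under the mean of the control arrays on mirtazapine replicate 2 and 0.4 under it on duloxetine replicate 2 (medians −0.5475 and −0.4). On the first replicates of the same drugs the medians were −0.0575 and 0.0525.

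Mirtazapine replicate 2 was below both control arrays for 21 of the 22 Pcdhb probe sets, all but Pcdhb1, against 44.1% of all probe sets tested. Duloxetine replicate 2 was below both for 20 of 22, all but Pcdhb1 and Pcdhb8, against 43.4% of the array. The first replicates were below both controls for 9 of 22 under mirtazapine (34.1% of the array) and 4 of 22 under duloxetine (34.6%). Amitriptyline showed a smaller split the other way round. Its replicate 1 had a Pcdhb median of −0.1475, below both controls for 16 of 22 (35.1% of the array), and its replicate 2 had 0.0575, below both for 1 of 22 (33.5%).

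**Figure D1:**
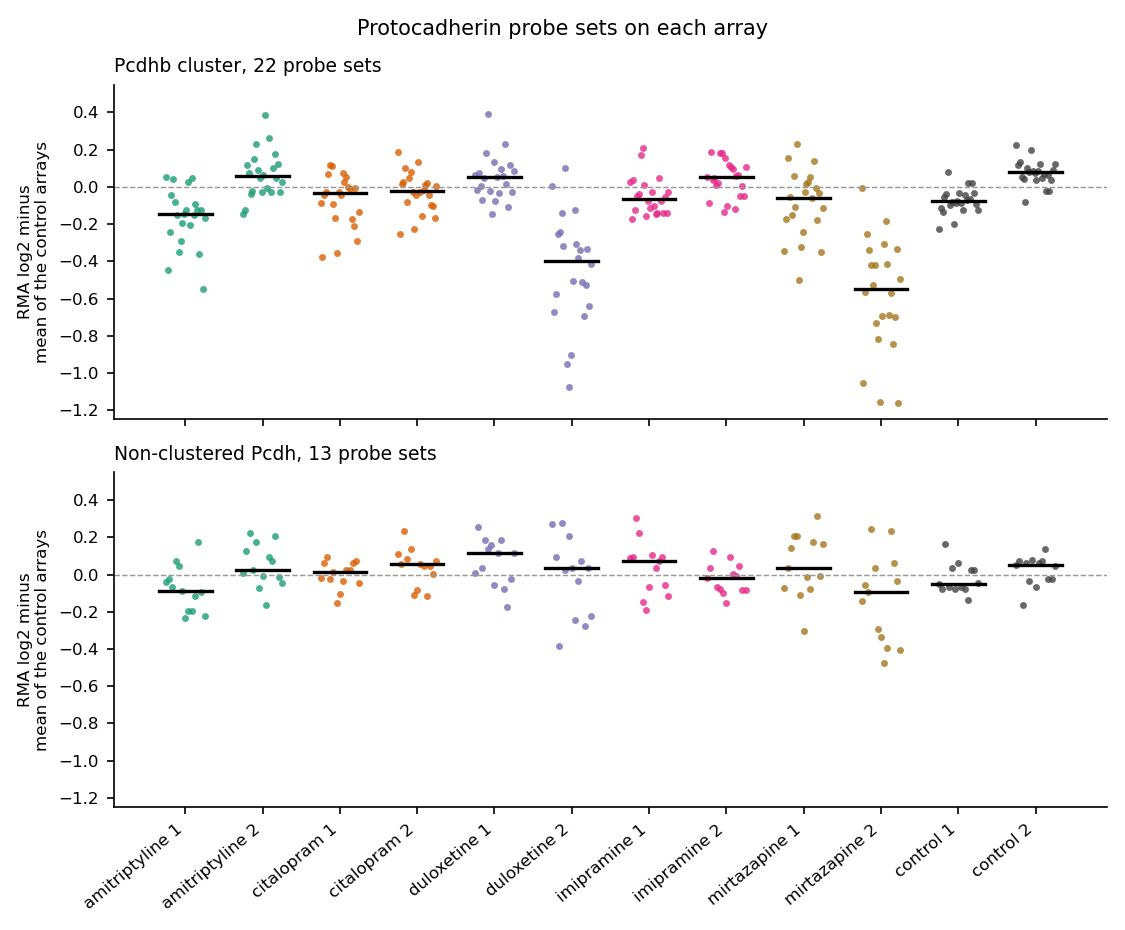
Each point is 1 probe set on 1 array, as RMA log2 value minus the mean of the 2 control arrays, with the 22 Pcdhb probe sets above and the 13 non-clustered ones below; black bars are medians. Pcdhb medians are −0.4 on duloxetine replicate 2 and −0.5475 on mirtazapine replicate 2, and between −0.1475 and 0.0775 on the other 10 arrays.

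The gap between the 2 arrays of a group had the same form. As replicate 2 minus replicate 1, the median Pcdhb probe set stood at −0.465 under duloxetine, with 0 of 22 higher on replicate 2, and at −0.485 under mirtazapine, with 1 of 22 higher (Pcdhb1). The same median was 0.23 under amitriptyline (20 of 22 higher), 0.055 under citalopram (15 of 22), 0.09 under imipramine (20 of 22) and 0.155 in control (19 of 22). Over all probe sets tested these medians lay between −0.02 and 0.02. In every group, control included, most Pcdhb probe sets therefore differed in a single direction between the 2 arrays.

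The non-clustered probe sets were less far from the controls on those arrays. Their median was 0.035 on duloxetine replicate 2, with 4 of 13 below both controls (43.4% of the array), and −0.095 on mirtazapine replicate 2, with 7 of 13 (44.1% of the array). On the first replicates it was 0.115 under duloxetine, with 1 of 13 below both controls (34.6% of the array), and 0.035 under mirtazapine, with 3 of 13 (34.1%). Of the 13, 11 were lower on mirtazapine replicate 2 than on replicate 1 (median gap −0.17) and 7 on duloxetine replicate 2 (median gap −0.1). The background control probe sets, given above, were highest on the same 2 arrays on which the Pcdhb probe sets were lowest, and their part in the Pcdhb values was not tested.

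Along the cluster the low values were not even. On mirtazapine replicate 2 the largest departures from the control mean were at Pcdhb21 (−1.16), Pcdhb11 (−1.155) and Pcdhb2 (−1.055), and the smallest was at Pcdhb1 (−0.005), the first gene of the cluster. On duloxetine replicate 2 the 3 neighbours Pcdhb10 (−1.075), Pcdhb9 (−0.95) and Pcdhb11 (−0.905) were the lowest, while Pcdhb8, the gene just before them, was at 0.1. Mirtazapine replicate 1 was lowest at Pcdhb9 (−0.5), whereas duloxetine replicate 1 was highest at Pcdhb8 (0.39).

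**Figure D2:**
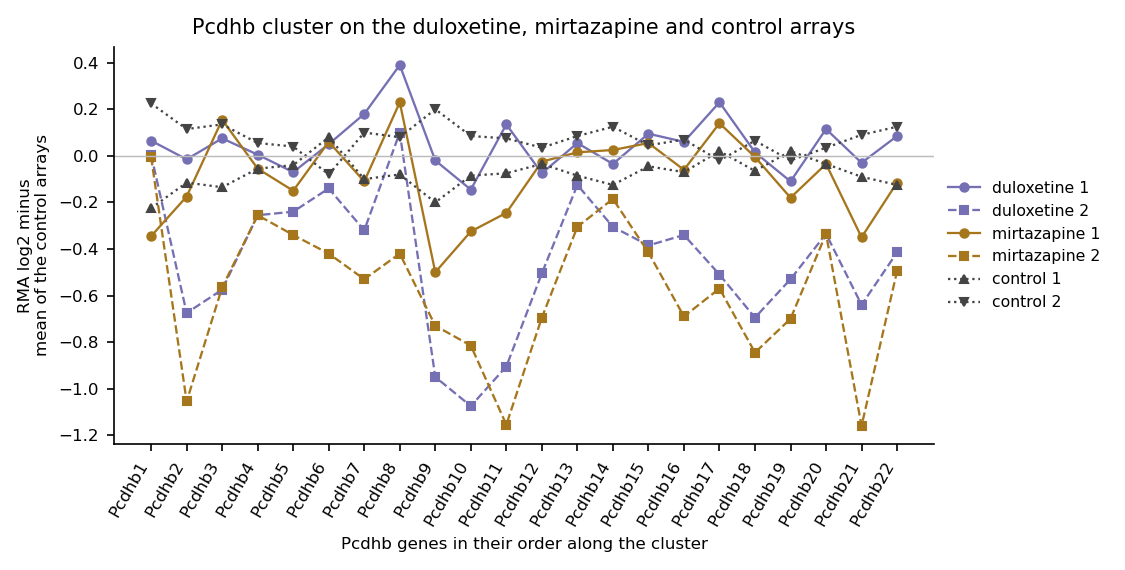
The 22 Pcdhb genes stand in their order along the cluster on the horizontal axis, and the vertical axis is the RMA log2 value minus the mean of the control arrays, with a line for each array of duloxetine, mirtazapine and control. Replicate 2 of both drugs dips to −1.075 at Pcdhb10 (duloxetine) and −1.16 at Pcdhb21 (mirtazapine), with Pcdhb1 near 0 on both.

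Under mirtazapine all 22 Pcdhb probe sets had a negative difference from control (median −0.275), where 49.8% of all probe sets were negative and the median was 0. The 2 arrays were both below both controls at 8 of the 22, namely Pcdhb2, Pcdhb5, Pcdhb7, Pcdhb9, Pcdhb10, Pcdhb11, Pcdhb19 and Pcdhb21, against 25.9% of the array. They were both above the controls at 0 of 22, against 25.2%. At an unadjusted p under 0.05 in limma, 2 of the 22 passed, Pcdhb21 and Pcdhb5, against 18.2% of the array in either direction and 10% with a negative difference. Without mirtazapine replicate 2 and duloxetine replicate 2, the Pcdhb median was −0.0575 with 15 of 22 negative, and without mirtazapine replicate 1 it was −0.5475.

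Pcdhb21 had log2 values of 6.94 and 6.13 on the mirtazapine arrays, against 7.2 and 7.38 on the control arrays. Both mirtazapine arrays lay below both controls, the second by far the more. The difference was −0.755 (SE 0.286, 95% interval −1.40 to −0.108), with an unadjusted p of 0.027 and an adjusted p of 0.241 in limma. It was −0.35 without mirtazapine replicate 2.

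Pcdhb11 gave 7.94 and 7.03 on the mirtazapine arrays, against 8.11 and 8.26 in control, a difference of −0.7 (95% interval −1.48 to 0.0772, adjusted p = 0.3 in limma), and of −0.245 without replicate 2. Pcdhb2 gave 7.52 and 6.64, against 7.58 and 7.81 in control, a difference of −0.615 (−1.27 to 0.0398, adjusted p = 0.29 in limma), and of −0.175 without replicate 2. In both genes replicate 1 was a little under the lower control and replicate 2 about 1 log2 unit under it. Pcdhb9 differed from these in that both mirtazapine arrays were low. It had 5.64 and 5.41, against 5.94 and 6.34 in control, a difference of −0.615 (−1.24 to 0.0137, adjusted p = 0.279 in limma). Both mirtazapine values were under the filter value of 5.7242. The second was also under the median background control probe set of its array (5.46). Pcdhb5, with 6.41 and 6.22 on mirtazapine and 6.52 and 6.6 in control, had a narrower spread and a difference of −0.245 (−0.483 to −0.00706, adjusted p = 0.268 in limma), which was −0.15 without replicate 2.

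Under duloxetine 20 of the 22 Pcdhb probe sets had a negative difference (median −0.16), against 52.3% of all probe sets (median −0.015). That direction rested on replicate 2: without it and mirtazapine replicate 2, 14 of 22 were positive and the median was 0.0525. Without duloxetine replicate 1 the median was −0.4. Both duloxetine arrays were below both controls at 4 of 22 (Pcdhb5, Pcdhb10, Pcdhb12 and Pcdhb19), against 19.3% of the array, and above them at 1 of 22 (Pcdhb8), against 15.6%. At an unadjusted p under 0.05 in limma there were 0 of 22, against 9.69% of the array.

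Pcdhb10 had 6.81 and 5.88 on the duloxetine arrays, against 6.87 and 7.04 in control, a difference of −0.61 (95% interval −1.22 to 0.00441, adjusted p = 0.51 in limma). Pcdhb9 had 6.12 and 5.19, against 5.94 and 6.34 in control, a difference of −0.485 (−1.11 to 0.144, adjusted p = 0.534 in limma). Pcdhb11 had the widest gap between arrays of a group, 8.32 and 7.28 under duloxetine, against 8.11 and 8.26 in control, a difference of −0.385 that was 0.135 without replicate 2. In Pcdhb9 the first duloxetine array lay between the controls and the second far under them. That second value was also under the median background control probe set of its array (5.61). The 5.88 of Pcdhb10 on the same array was a little above that median. With duloxetine replicate 1 left out, replicate 2 stood alone and was assumed to vary like the other groups. The differences of Pcdhb10 and Pcdhb9 were then −1.075 and −0.95. Without replicate 2 the same differences were −0.145 and −0.02. Pcdhb8 ran the other way, with 8.64 and 8.35 on duloxetine and 8.17 and 8.33 in control, a difference of 0.245 (−0.292 to 0.782), which was 0.39 without replicate 2.

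Under amitriptyline, citalopram and imipramine the Pcdhb medians were close to 0. The amitriptyline median was −0.055 (14 of 22 negative, 50% of the array). It was −0.1475 without amitriptyline replicate 2 and 0.0575 without replicate 1. The median was −0.01 under citalopram (12 of 22 negative, 49.9%) and −0.0025 under imipramine (11 of 22, 50.7%). The extremes under amitriptyline were −0.29 (Pcdhb21) and 0.205 (Pcdhb13, followed by Pcdhb15 at 0.155), under citalopram −0.315 (Pcdhb2) and 0.085 (Pcdhb5, followed by Pcdhb7 at 0.08), and under imipramine −0.145 (Pcdhb10) and 0.195 (Pcdhb8, followed by Pcdhb3 at 0.11). Without amitriptyline replicate 2 its differences were −0.55 for Pcdhb21, 0.025 for Pcdhb13 and 0.045 for Pcdhb15. At an unadjusted p under 0.05 in limma there were 0 of 22 for each of these drugs. The shares of the array were 5.34% under amitriptyline, 3.32% under citalopram and 3.59% under imipramine.

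Pcdhb2 was the only Pcdhb probe set with both amitriptyline arrays (7.25 and 7.57) below both controls (7.58 and 7.81), against 19.6% of the array, and 0 of 22 lay above, against 17.5%. Citalopram had 4 of 22 lower (Pcdhb2, Pcdhb10, Pcdhb19 and Pcdhb21, against 20% of the array) and 1 higher (Pcdhb5, against 17.1%). Imipramine had 4 of 22 lower (Pcdhb10, Pcdhb12, Pcdhb16 and Pcdhb19, against 16.8%) and 2 higher (Pcdhb8 and Pcdhb17, against 14.1%). All of these counts were near or under the share on the array. Because every drug was compared with the same 2 control arrays, a control value that is high or low enters all 5 differences at once. Pcdhb10, for example, had control values of 6.87 and 7.04, and its differences were −0.075, −0.29, −0.61, −0.145 and −0.57 under amitriptyline, citalopram, duloxetine, imipramine and mirtazapine (the last −0.325 without mirtazapine replicate 2).

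Pcdhga10, a gamma protocadherin whose variable exon is spliced to constant exons shared with the rest of its cluster, was the single Pcdhg probe set. Its values were 10.64 and 10.28 under mirtazapine, 10.7 and 10.47 under duloxetine, and 10.65 and 10.61 in control. Again only the second arrays of those drugs were low. The mirtazapine difference was −0.17 (95% interval −0.461 to 0.121, adjusted p = 0.452 in limma), and it was 0.01 without the arrays that stand apart. The 3 other drugs ranged from −0.095 (citalopram) to 0.06 (imipramine). Both citalopram arrays (10.52 and 10.55) lay below both controls, as did 20% of the array. Both imipramine arrays (10.69 and 10.69) lay above both controls, as did 14.1% of the array.

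**Figure D3:**
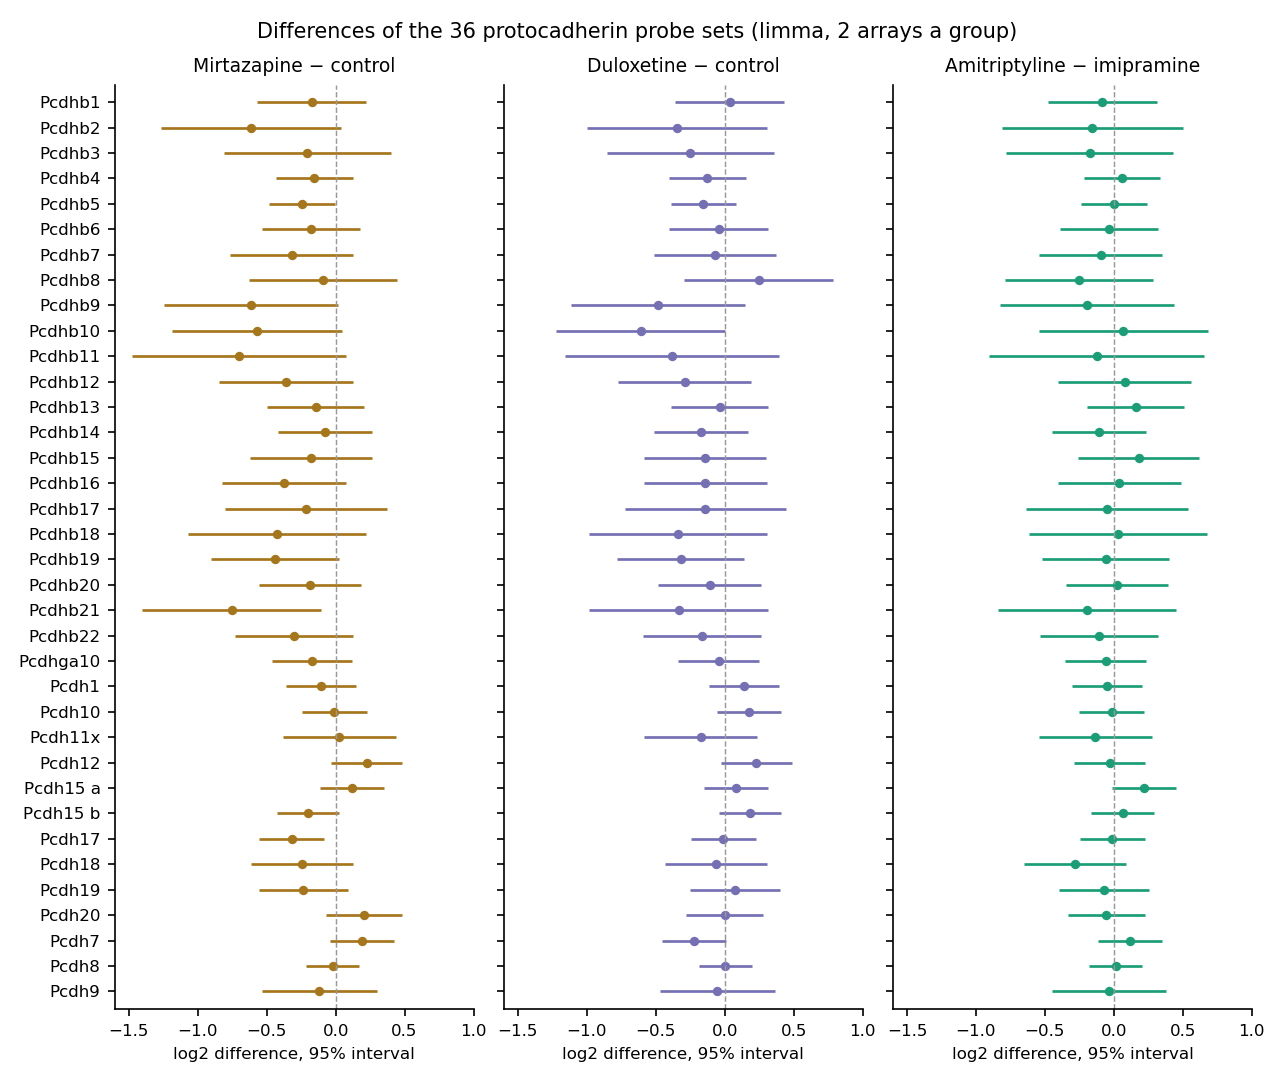
Points are log2 differences and lines their 95% intervals from limma for the 36 probe sets, with mirtazapine minus control on the left, duloxetine minus control in the middle and amitriptyline minus imipramine on the right; Pcdh15 a and b are its 2 probe sets. All 22 Pcdhb points are negative under mirtazapine, while only Pcdhb5, Pcdhb21 and Pcdh17 have an interval that leaves out 0.

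The non-clustered genes varied less as a class in their median. Their 13 probe sets had median differences between −0.02 (amitriptyline and mirtazapine) and 0.035 (citalopram and imipramine), with 0.005 under duloxetine. These small values depended on single arrays: the median was 0.115 under duloxetine and 0.035 under mirtazapine without replicate 2 of each drug, and −0.045 under imipramine without control replicate 1. Single genes differed in direction between drugs. Both arrays lay above both controls at 2, 1, 3, 2 and 3 of the 13 under amitriptyline, citalopram, duloxetine, imipramine and mirtazapine. The shares of the whole array were 17.5%, 17.1%, 15.6%, 14.1% and 25.2%. Both lay below both controls at 1, 2, 1, 4 and 3 of the 13, against 19.6%, 20%, 19.3%, 16.8% and 25.9%. Under imipramine Pcdh8, Pcdh9 and both Pcdh15 probe sets were lower, and Pcdh7 and Pcdh18 higher. Pcdh7 separated from the controls under all 5 drugs, downward under duloxetine and upward under the others. All 5 comparisons share the same control arrays, which were close together for Pcdh7 (9.71 and 9.66). How many probe sets of the array separated under all 5 drugs was not counted. Pcdh17 had the lowest unadjusted p of any protocadherin in limma. The promoter sequences of Pcdh7 and Pcdh17 are shown here for these reasons. They are the 300 bases around the gene start from RefSeq (GRCm38.p6), both on the plus strand, at chr5:57717831-57718130 for Pcdh7 and chr14:84443313-84443612 for Pcdh17. Capitals mark CG dinucleotides, the sites of DNA methylation.
Pcdh7: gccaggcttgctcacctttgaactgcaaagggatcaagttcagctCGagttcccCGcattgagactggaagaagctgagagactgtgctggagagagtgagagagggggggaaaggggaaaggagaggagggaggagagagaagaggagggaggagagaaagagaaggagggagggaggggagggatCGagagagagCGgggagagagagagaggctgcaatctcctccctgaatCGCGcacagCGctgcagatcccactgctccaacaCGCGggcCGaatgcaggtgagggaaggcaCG
Pcdh17: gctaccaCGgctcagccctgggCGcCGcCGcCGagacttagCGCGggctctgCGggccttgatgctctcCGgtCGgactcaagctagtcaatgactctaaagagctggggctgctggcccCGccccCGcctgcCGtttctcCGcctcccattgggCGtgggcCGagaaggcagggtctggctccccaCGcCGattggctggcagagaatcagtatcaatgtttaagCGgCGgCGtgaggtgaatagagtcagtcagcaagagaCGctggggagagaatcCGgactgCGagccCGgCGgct

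The Pcdh7 promoter holds 11 CG dinucleotides and that of Pcdh17 holds 26, where the median of 32851 mouse promoters of this length is 7. Of those promoters, 41.4% hold at least as many as Pcdh7 and 16.9% at least as many as Pcdh17. The other non-clustered genes with a promoter in the table range from 4 (Pcdh20) to 24 (Pcdh10). The tetramer CGCT, which lies in the conserved element of many clustered protocadherin promoters, occurs 3 times in the Pcdh7 promoter and 3 times in that of Pcdh17 when both strands are read, always over a CG counted above, and 61.8% of all promoters hold it at least once. These counts describe the sequence and say nothing of methylation or binding in these cultures.

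Of the delta-1 group, Pcdh7, known in Xenopus as NF-protocadherin for its part in ectoderm adhesion and retinal axon growth, had 9.86 and 9.89 on the amitriptyline arrays, 9.75 and 9.73 under citalopram, 9.51 and 9.41 under duloxetine, 9.78 and 9.73 under imipramine, and 10 and 9.75 under mirtazapine, against 9.71 and 9.66 in control. Both arrays of amitriptyline, citalopram, imipramine and mirtazapine were above both controls, and both of duloxetine were below. Such complete separation upward was found for 14.1% to 25.2% of the array in these 4 comparisons, and downward for 19.3% under duloxetine. The differences were 0.19 under amitriptyline (95% interval −0.0419 to 0.422), 0.055 under citalopram, −0.225 under duloxetine (−0.457 to 0.00691), 0.07 under imipramine and 0.19 under mirtazapine (−0.0419 to 0.422), the last being 0.315 without mirtazapine replicate 2. None passed, with adjusted p in limma of 0.998, 1, 0.514, 1 and 0.328 in that order.

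Pcdh1, an adhesion protein of neurons and of airway epithelium, had 8.81 and 8.74 under mirtazapine, against 8.83 and 8.93 in control, a difference of −0.105 (95% interval −0.358 to 0.148) with both arrays below both controls. Under duloxetine it had 8.89 and 9.15, a difference of 0.14 that was 0.01 without replicate 2. Pcdh9, found in subsets of cortical neurons, had the widest gap between arrays of a group among the non-clustered genes, 9.72 and 9.15 under mirtazapine, against 9.51 and 9.6 in control. These mirtazapine arrays lay on both sides of the controls, and the difference of −0.12 is smaller than their spread and was 0.165 without replicate 2. The X-linked Pcdh11x had 8.23 and 8.05 under imipramine and 7.96 and 7.54 under duloxetine, against 8.09 and 7.76 in control, with differences of 0.215 (−0.195 to 0.625) under imipramine and −0.175 (−0.585 to 0.235) under duloxetine, the second of which was 0.035 without duloxetine replicate 2. The imipramine difference was 0.38 without control replicate 1 and 0.05 without control replicate 2. Its groups overlapped in every comparison with control.

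In the delta-2 group Pcdh17, which recruits the WAVE complex at axon contacts and helps assemble synapses of the basal ganglia, had 9.27 and 9.24 on the mirtazapine arrays, against 9.64 and 9.51 in control. The mirtazapine values lay below both controls and below every other array of the study, of which the lowest was 9.34. Complete separation downward from the controls was found for 25.9% of the array in this comparison. At an unadjusted p under 0.05 in limma, Pcdh17 was the 1 of 13 non-clustered probe sets that passed. The array had 18.2% in either direction and 10% with a negative difference. The Pcdh17 difference was −0.32 (SE 0.105, 95% interval −0.557 to −0.0829), with an unadjusted p of 0.0138 and an adjusted p of 0.206 in limma, and it was −0.305 without the arrays that stand apart. Under the other drugs it ranged from −0.12 (amitriptyline) to −0.01 (duloxetine, −0.055 without its replicate 2). Both citalopram arrays (9.47 and 9.49) also lay just below the controls.

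Pcdh18, whose cytoplasmic tail binds Dab1, had 8.41 and 8.44 on the amitriptyline arrays, against 8.54 and 8.67 in control, a difference of −0.18 (95% interval −0.549 to 0.189), with both arrays below both controls. Under mirtazapine it had 8.59 and 8.13, and only the second array was below. Pcdh19, the X-linked gene mutated in a human epilepsy of girls and women, had 9.31 and 8.99 under mirtazapine, against 9.31 and 9.46 in control, a difference of −0.235 (−0.559 to 0.0895), with the groups touching. It was −0.075 without replicate 2. Pcdh10, which guides striatal and thalamocortical axons, had 10.98 and 10.82 under duloxetine, against 10.65 and 10.8 in control, a difference of 0.175 (−0.0591 to 0.409) with both arrays above both controls. Pcdh8, named arcadlin in rat for its induction by neuronal activity, was the steadiest of the 36, with all 12 values between 9.49 and 9.66 and differences between −0.07 (imipramine) and 0.04 (citalopram).

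Outside the delta groups, Pcdh12, an adhesion gene of endothelium and placenta, had 6.56 and 6.65 under duloxetine and 6.58 and 6.62 under mirtazapine, against 6.31 and 6.44 in control. All 4 drug values were above both controls, with differences of 0.23 (95% interval −0.029 to 0.489, adjusted p = 0.515 in limma) and 0.225 (−0.034 to 0.484, adjusted p = 0.31). Of the 6 endothelial markers 5 were tested, and 4 of 5 were positive under each of these drugs (median 0.155 under duloxetine and 0.13 under mirtazapine, 0 called). The summed endothelial marker level, as log2 of the summed linear values, was 9.105 and 9.314 under duloxetine and 9.058 and 9.298 under mirtazapine, against 9.001 and 9.048 in control, with Tek under the filter. The part of endothelial RNA in the Pcdh12 values was not tested.

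Pcdh15, which forms the tip link of inner-ear hair cells with cadherin 23, was read by 2 probe sets that disagreed. Probe set 17234213 had 7.56 and 7.61 under duloxetine and 7.29 and 7.11 under mirtazapine, against 7.32 and 7.48 in control. It was thus above both controls under duloxetine and below both under mirtazapine, with differences of 0.185 (95% interval −0.0418 to 0.412) and −0.2 (−0.427 to 0.0268, and −0.11 without mirtazapine replicate 2). Probe set 17234207 had 7.55 and 7.44 under duloxetine and 7.62 and 7.45 under mirtazapine, against 7.45 and 7.38 in control, with differences of 0.08 and 0.12, which were 0.135 and 0.205 without replicate 2 of each drug. Under mirtazapine, amitriptyline and citalopram the 2 probe sets had opposite signs. Pcdh20 had 8.92 and 8.98 under mirtazapine, above both controls at 8.61 and 8.88, a difference of 0.205 (−0.0731 to 0.483, adjusted p = 0.364 in limma).

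**Figure D4:**
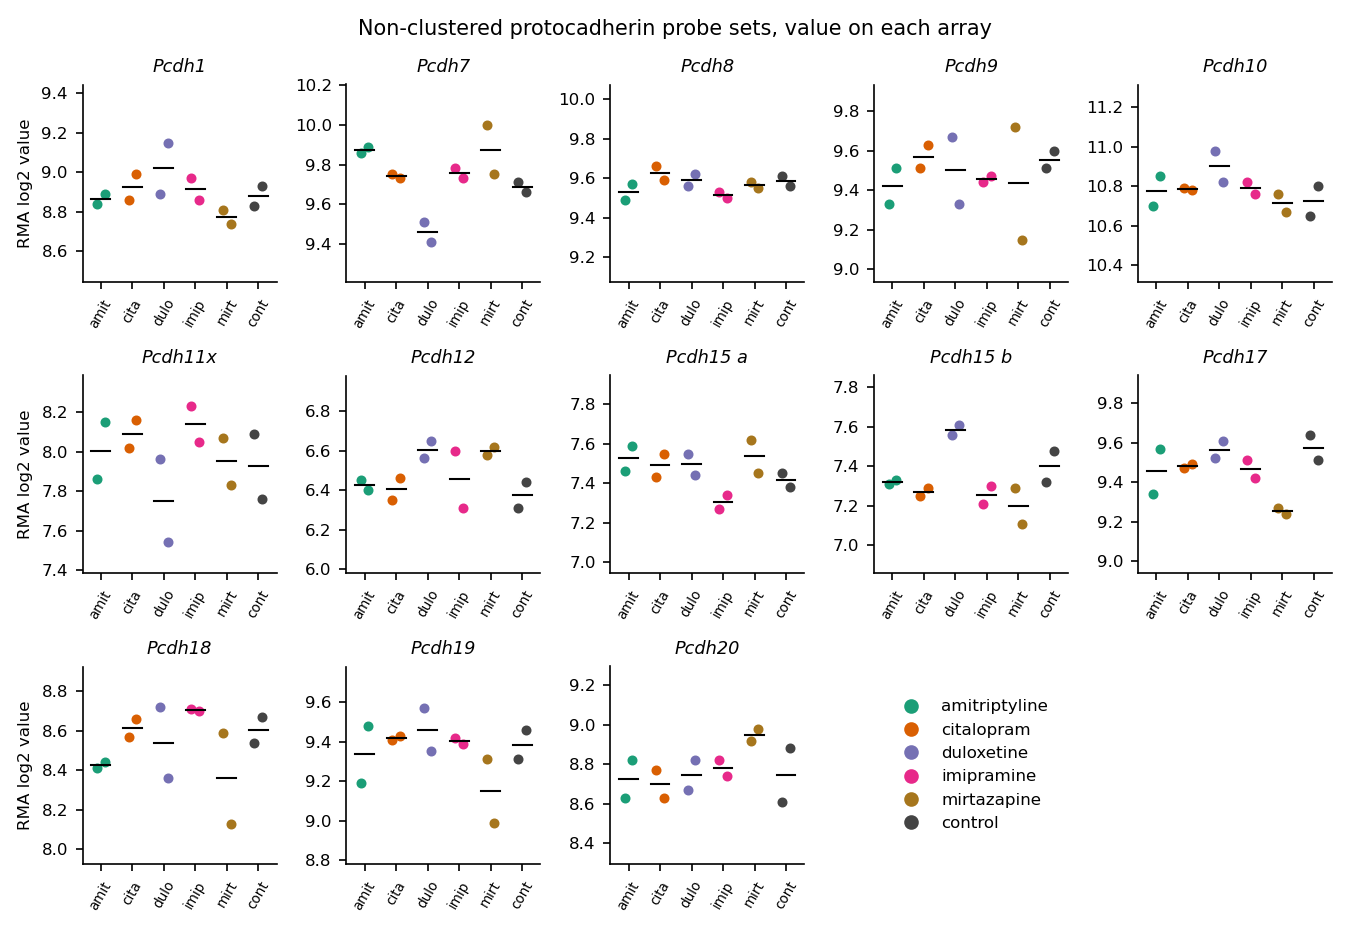
Each panel shows 1 non-clustered probe set, with RMA log2 value on the vertical axis over a span of 1 log2 unit, 2 points (arrays) for each group from amitriptyline to control, and a black line at the group mean. Pcdh7 is lowest under duloxetine (9.51 and 9.41), Pcdh17 is lowest under mirtazapine (9.27 and 9.24), and Pcdh8 stays between 9.49 and 9.66.

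Amitriptyline and imipramine are tricyclics that were given at the same dose and time. Imipramine carries a nitrogen in its central ring where amitriptyline has a carbon joined to the side chain by a double bond. This was the only pair of compounds compared. In limma 0 of 36 protocadherins differed between them (0% of the array), and 0 had an unadjusted p under 0.05, against 2.19% of the array. The differences, amitriptyline minus imipramine, ran from −0.28 for Pcdh18 (95% interval −0.649 to 0.0893) to 0.22 for Pcdh15 probe set 17234207 (−0.0139 to 0.454). The Pcdhb median was −0.055 and the non-clustered median −0.03. Among the Pcdhb intervals the lowest limit was −0.902 (Pcdhb11) and the highest 0.684 (Pcdhb10), while the narrowest ran from −0.238 to 0.238 (Pcdhb5). Their widths rest on a spread pooled over all arrays, including those that stand apart, which are not in this comparison. The median Pcdhb interval reached 0.455 log2 units above and below its difference, and the widest 0.777. Without the arrays that stand apart these reaches were 0.283 and 0.429.

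Pcdh18 gave 8.41 and 8.44 under amitriptyline and 8.71 and 8.7 under imipramine, without overlap. Pcdh15 probe set 17234207 gave 7.46 and 7.59 under amitriptyline and 7.27 and 7.34 under imipramine, again without overlap. Amitriptyline arrays were both higher at 3 of the 36 (Pcdh7 and both Pcdh15 probe sets, against 15.8% of the array) and both lower at 2 (Pcdhga10 and Pcdh18, against 16.9%).

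Genes that act on the protocadherins were followed in lists. Of 20 tested regulators of clustered promoter choice (CTCF, cohesin and its loaders, DNA methylation enzymes and related chromatin genes), 0 passed limma's adjusted test in any comparison. Under mirtazapine 17 of 20 were negative (median −0.1675, where the whole array had 0), with 1 at an unadjusted p under 0.05 (18.2% of the array): Dnmt1, the maintenance DNA methyltransferase (−0.23, adjusted p = 0.261 in limma). Without mirtazapine replicate 2 the regulators' median was 0.025, with 9 of 20 negative. Under duloxetine 14 of 20 were negative (median −0.0925, against −0.015 on the array) with 0 under that p, and without duloxetine replicate 2 the median was 0.0575 with 4 of 20 negative. The medians under the other 3 drugs lay between −0.0475 and −0.005, also with 0.

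Of 25 tested processing and signalling partners (the ADAM10 and gamma-secretase proteases, the kinases, the WAVE complex and others), 0 passed in any comparison. Under mirtazapine 20 of 25 were negative (median −0.115, where the whole array had 0), and the median was −0.07 without mirtazapine replicate 2. At an unadjusted p under 0.05 there were 5 of 25, all negative, against 18.2% of the array in either direction and 10% with a negative difference. The lowest p belonged to Ptk2b, the Pyk2 kinase that clustered protocadherins inhibit (−0.835, adjusted p = 0.0961 in limma), whose differences under the other 4 drugs ran from −0.48 (amitriptyline) to −0.36 (citalopram). Next came Nlgn1, encoding the synaptic adhesion protein neuroligin 1 (−0.445, adjusted p = 0.223 in limma). The neuronal markers had a median of −0.07 under mirtazapine, with 6 of 8 negative and 0 called (median 0 without replicate 2), and their summed level was 15.21 and 15.08, against 15.17 and 15.26 in control.

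Markers of other cells also differed under mirtazapine. Of 8 astrocyte markers 7 were negative (median −0.4025), and Aqp4, a water channel, fell by 1.165 log2 units (adjusted p = 0.042 in limma). Of 8 progenitor markers 7 were negative (median −0.275), and Hes5, a Notch target, fell by 1.145 (adjusted p = 0.0347). Calb2, read with the Cajal-Retzius neuron markers, fell by 1.385 (adjusted p = 0.0375 in limma). Dcn, a fibroblast proteoglycan, fell by 1.61 (adjusted p = 0.0467 in limma). The lists of these 2 genes did not fall with them. Of 5 Cajal-Retzius markers 4 were positive (median 0.28, and 0.08 without replicate 2). Of 6 fibroblast and mural markers 3 were positive and 3 negative (median 0.015, and −0.02 without replicate 2). None of these 4 calls held when an array of amitriptyline, citalopram, imipramine or control, or mirtazapine replicate 2, was left out, since 0 probe sets on the array were then called in limma. The other marker lists had 0 calls. Of 7 oligodendrocyte lineage markers 7 were negative (median −0.315, and −0.555 without replicate 2), and of 7 microglial markers 5 were positive (median 0.17, and 0.075 without replicate 2).

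These marker values were not limited to mirtazapine. The astrocyte median was −0.32 under amitriptyline and −0.265 under imipramine, with 8 of 8 negative under each, and −0.1475 under citalopram (7 of 8). The progenitor medians were −0.3175, −0.275 and −0.185 under amitriptyline, imipramine and citalopram. The oligodendrocyte lineage median was −0.45 under amitriptyline, −0.5 under imipramine and −0.495 under citalopram, with 7 of 7 negative under each. Aqp4 had −1.025 (amitriptyline), −0.93 (imipramine) and −0.77 (citalopram), with no call in limma. Under these 3 drugs the Pcdhb medians, given above, were close to 0. Under duloxetine the astrocyte median was 0.01 (0.04 without replicate 2), with 3 of 8 negative. There 6 of 7 oligodendrocyte lineage markers were positive (median 0.325). Their summed level was 12.28 and 12.26 under duloxetine, against 11.74 and 12.27 in control. The duloxetine sums were thus near that of control replicate 2, and control replicate 1 was the low one.

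The summed astrocyte level was 12.63 and 12.58 under mirtazapine, against 12.82 and 12.96 in control. It was 12.54 and 12.67 under amitriptyline, 12.78 and 12.73 under citalopram, 12.63 and 12.66 under imipramine and 12.93 and 12.87 under duloxetine. The astrocyte values were low on both mirtazapine arrays, whereas the Pcdhb values were low on the second array of mirtazapine and of duloxetine, and the part of any cell type in the protocadherin values was not tested.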

How the data were processed

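The deposited values were made by the authors with Affymetrix Expression Console and RMA, per the submitters' processing notes, and are on a log2 scale with 2 decimals. The sources used here give neither versions and settings of these tools nor the build behind the annotation. There are no counts behind RMA values and hence no depth, and 2 arrays a group limit the precision. Groups and replicate numbers came from the labels. Names came from the platform annotation (23521 probe sets with 1 symbol, 1814 with several, 16010 with none), and the 36 members matched the GRCm38 gene table.

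The limma package (version 3.58.1 under R 4.3.3) fitted a mean for each group over all 12 arrays, with moderated variances and no trend (6 residual and 2.95 prior degrees of freedom), on the 28949 probe sets with a mean log2 of at least 5.7242, the 30th percentile. Tests were two-sided, the Benjamini-Hochberg adjustment ran over these probe sets, and calls were made under 0.05. In data simulated for mirtazapine against control, the fit recovered 16.4% of 67 probe sets changed by 0.5 log2 units, 67.2% of 67 changed by 1 and 98.5% of 66 changed by 2. The simulation gave all arrays of a probe set the same spread. On the real arrays the residual SD was 0.183 for mirtazapine and 0.126 for control, so recovery there may differ. Members, gene lists, tests and alternatives were chosen with earlier results of these data known. Named genes are all non-clustered members, for each drug the 3 highest and 3 lowest members, members with several probe sets or the widest gaps, and the list genes that were called or had the lowest p. The 3 Pcdhb genes of highest level and the lowest are named too. Pcdhb1, Pcdhb12, Pcdhb16 and Pcdhb19 fall outside this rule and were named after their values were seen, Pcdhb1 as an exception and the others because their groups did not overlap. The alternatives were other filters, 1 probe set per gene, a replicate block, array weights, a variance trend with robust moderation, quantile normalization applied again, each array left out, both arrays that stand apart left out, and only the 4 arrays compared. Promoters are from RefSeq, and sequences of members on chromosome 18 are not shown here. Python 3.11.15 with matplotlib 3.10.9 drew the figures.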

Additional observations from a re-analysis of the deposited data

How the results depend on the processing

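The count of protocadherins called was 0 in limma for every comparison and every alternative, with 1 exception. This was duloxetine without its replicate 1, where replicate 2 stood alone and many probe sets of the whole array were called too. There Pcdhb10 and Pcdhb9 had differences of −1.075 and −0.95. The Pcdhb9 value on that array was under the median background control probe set. The count over the whole array under mirtazapine depended much more on the setting. It was 23 as reported, 304 of 17469 with 1 probe set per gene, 185 with the 50th percentile filter, 100 with trend and robust, 39 after a second quantile normalization, 5 with a replicate block, 1 with array weights, 0 with no filter or only the 4 arrays compared, and 0 to 383 with single arrays left out (383 without either duloxetine array, 272 without mirtazapine replicate 1). The other drugs had at most 16 (amitriptyline, array weights), except 2094 under duloxetine without its replicate 1. The test of any difference had 18 with 1 probe set per gene. The cause was not tested. No pairing by replicate number ran through all groups: the correlations between groups of the deviations of replicate 1 ranged from −0.298 to 0.665. The 0.665 was between duloxetine and mirtazapine, whose second arrays stand apart. The next highest was 0.185, between citalopram and imipramine. The replicate block left 0 protocadherins called (lowest adjusted p under mirtazapine 0.24 in limma).

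Pcdhb medians ranged over the arrays left out from −0.5475 to −0.0575 under mirtazapine and from −0.4 to 0.0525 under duloxetine. The ranges were −0.1475 to 0.0575 under amitriptyline, −0.1 to 0.06 under citalopram and −0.0725 to 0.0525 under imipramine. The non-clustered median went to 0.0667 under mirtazapine and 0.0973 under duloxetine after a second quantile normalization, and over the arrays left out it ranged from −0.095 to 0.035 under mirtazapine, 0.005 to 0.115 under duloxetine and −0.045 to 0.075 under imipramine. Signs reversed for Pcdhb11 under duloxetine without its replicate 2 (range over the arrays left out −0.905 to 0.135, and 0.135 without both arrays that stand apart), and, without control replicate 1, for Pcdhb7 under citalopram (range −0.02 to 0.18) and Pcdhb3 under imipramine (range −0.025 to 0.245). Only 2 arrays a group limit every value.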

Other observations

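The other cadherins of the superfamily gave a mixed picture. Of 18 classical and type II cadherins, the calcium-dependent adhesion proteins of cell junctions, 12 were negative under mirtazapine (median −0.1975, where the whole array had 0) and 0 passed limma's adjusted test, and the median was −0.095 without mirtazapine replicate 2. At an unadjusted p under 0.05 there were 5 of 18, all negative, against 18.2% of the array in either direction and 10% with a negative difference. The lowest p belonged to Cdh11 (−0.39, adjusted p = 0.137 in limma) and Cdh20 (−0.585, adjusted p = 0.178). Cdh11 had −0.39 under amitriptyline and −0.325 under imipramine as well. Under duloxetine 9 of 18 were negative (median −0.015).

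Of 17 tested genes of the Fat, Dachsous, Celsr and other large cadherins, 11 were positive under mirtazapine (median 0.04, and 0.08 without replicate 2, 0 called), with 3 at an unadjusted p under 0.05, against 18.2% of the array. The planar polarity genes Celsr1 and Celsr3 lay on opposite sides, Celsr1 at −0.56 (adjusted p = 0.163 in limma) and Celsr3 at 0.32 (adjusted p = 0.2). Celsr1 had similar values under amitriptyline (−0.615), citalopram (−0.535) and imipramine (−0.585), and stood at −0.225 under duloxetine, with no call in limma. For Celsr3 the other differences were 0.23 (amitriptyline), 0.15 (citalopram), 0 (imipramine) and −0.095 (duloxetine).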
